A study of Mus musculus with 4 samples.

Results

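Methylated DNA was followed over 10 genes of voltage-gated calcium channels in islets of WT and βRapKO mice. Peaks of the 4 libraries were joined where they overlapped by at least 1 bp, and a joined region was assigned to a gene if it overlapped the gene body or the 2 kb before its start in the GENCODE annotation of mm10. All 10 genes held regions, 305 of the 186169 regions of the genome, and 103 of them were called in all 4 libraries. The nearest region left outside these limits lay 960 bp beyond the upstream limit of Cacna1c. Only 5 of the 305 regions also overlapped another gene, Dcp1b at the start of Cacna1c or Dcp1a at the start of Cacna1d.

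The WT mice carried Raptor lox/lox without Cre and the βRapKO mice carried Raptor lox/lox together with RipCre, both on the C57BL/6 background of the labels and 8 weeks old, with 2 libraries per genotype. The authors described the RipCre line as of mixed strain background and used littermates as controls, and a part of strain was not tested. RipCre is driven by the rat insulin promoter, and the groups held no mice with Cre alone. Islets also contain alpha, delta and other cells in which this promoter is not active, so that fewer methylated cells and less methylation per cell cannot be told apart. A peak list does not show the deletion of Raptor, and the genotype of each library was taken from the labels. No peak was called within 1 kb of the start of 6 beta cell genes (Ins1, Ins2, Iapp, Pdx1, Nkx6-1 and Mafa) or of Gcg and Sst, the hormone genes of alpha and delta cells. Among 3 exocrine genes, Cpa1 had a region called in 1 library of each genotype, and Cela2a and Ptf1a had none. These calls tell nothing of the expression of those genes.

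MeDIP-seq enriches sheared DNA with an antibody against methylated cytosine, and the sequenced tags pile up over DNA rich in methylated CpG sites. Each library kept 25585533 to 31330751 tags after duplicates were removed and had 117638 to 151093 peaks, the most in WT replicate 2. Tags in the peaks of a region are given as CPM, tags per 1000000 of the tags kept. The correlation of log2 tags was 0.918 in WT and 0.916 in βRapKO, and between libraries of different genotypes it ran from 0.906 to 0.920.

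Voltage-gated calcium channels open when the membrane depolarizes. In beta cells the closing of ATP-sensitive potassium channels by glucose metabolism depolarizes the membrane, and calcium entering through these channels triggers the exocytosis of insulin granules. A channel is built around a pore-forming alpha-1 subunit. Cacna1c and Cacna1d encode the alpha-1 subunits of the L-type channels, which carry much of the calcium current of beta cells. Cacna1a, Cacna1b and Cacna1e encode those of the P/Q-, N- and R-type channels, known from transmitter release at synapses, and Cacna1g, Cacna1h and Cacna1i those of the T-type channels, which open at low voltage. Cacna2d1 and Cacnb2 encode auxiliary subunits, an alpha-2-delta and a beta subunit, that bring the channel to the membrane and shape its gating. DNA methylation is dense over the bodies of many genes, whereas CpG-rich gene starts are mostly unmethylated.

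Methylated regions were spread over the whole length of the channel genes (the map of regions along the genes). Cacna1c, 609 kb long on chromosome 6, held 85 regions and Cacna1d, 452 kb long on chromosome 14, held 65. Cacna1e held 31, Cacna1a 30, Cacna2d1 28, Cacna1b 18, Cacnb2 18, Cacna1i 15, Cacna1g 9 and Cacna1h 6. Per 100 kb of gene and upstream window the counts ran from 4.65 in Cacnb2 to 14.3 in Cacna1d, with a median of 11.5 over the 10 genes, against 12.8 over all genes with a region. Along 1 principal transcript per gene, 191 regions lay within an intron, 89 touched an exon, 22 lay before the first exon and 3 after the last. Coding exons of any transcript were touched by 28.5% of the channel gene regions and by 34.1% of the 96715 regions assigned to protein-coding genes. Of the 305 regions, 33.8% were called in all 4 libraries, against 40.3% of all regions, while 94 were called in 1 library alone and 48 in 3 libraries.

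**Figure D1:**
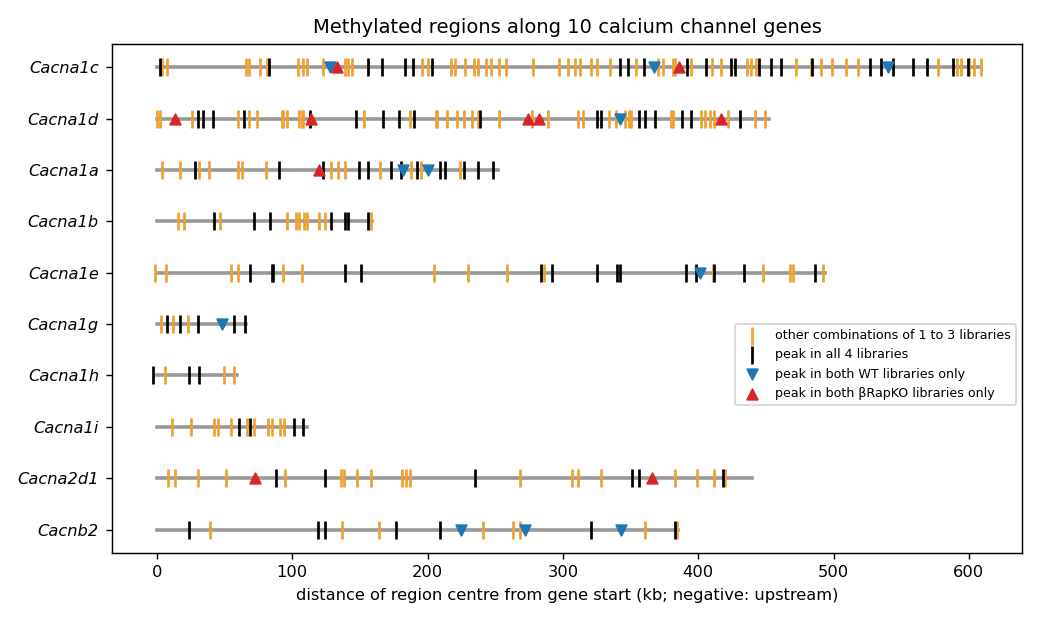
Position of the 305 methylated regions along the 10 genes. The x axis gives the distance of the region centre from the gene start in kb, each grey bar is a gene from start to end, black ticks mark the 103 regions called in all 4 libraries, blue and red triangles the 11 and 10 regions called in both libraries of WT or βRapKO only, and orange ticks the other regions. Regions lie along all 10 genes, and the starts of most genes are free of black ticks.

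The starts of most of these genes had no peak. A region overlapped the window from 2 kb before to 500 bp after the gene start in Cacna1d, Cacna1e and Cacna1h, and in none of the other 7 genes. The starts of Cacna1b, Cacna1h, Cacna1i and Cacna2d1 were CpG-rich, with an observed over expected CpG ratio of 0.762 to 0.815 from 1000 bp before to 500 bp after the start, and Cacna1h was the one of these 4 with a region. That region ran upstream from 25434733, where the gene start was at 25433783, and so touched only the outer edge of the window. It held 1.38 CpG sites per 100 bp, while the window held 8.87. Over all protein-coding genes, 10.8% of the 8073 starts with a ratio of at least 0.6 had a region in this window, and 20.6% of the 13838 starts below it. The region of Cacna1d (chromosome 14, 30490846 to 30491845) covered exon 1, also overlapped Dcp1a, and had no peak in WT replicate 1 and 35, 39 and 40 tags in WT replicate 2 and βRapKO replicates 1 and 2. The region of Cacna1e (chromosome 1, 154884566 to 154887070) lay before the gene start and held 103, 128 and 93 tags in WT replicates 1 and 2 and βRapKO replicate 1, with no peak in βRapKO replicate 2. The principal transcripts of Cacna1e and Cacnb2 started 158 and 221 kb downstream of the annotated gene starts. Neither had a region from 1000 bp before to 500 bp after its own start. A region that the naming rule does not cover was singled out after its values were seen. It touched exon 1 of the principal transcript of Cacna1a (chromosome 8, 84415647 to 84416885), which starts 26.9 kb downstream of the annotated gene start, at 84415364. The 1000 bp before and 500 bp after this start held 9.73 CpG sites per 100 bp. The peak summits of the region, at 84416104 to 84416160, lay downstream of this window. The 240 bp around the summits held 7 CpG sites and no coding base. The Cacna1a exon 1 region had 2.70 and 2.23 CPM in WT and 2.22 and 2.40 CPM in βRapKO, so the genotypes overlapped.

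The methylated sequence differed among the named regions, of which Cacna2d1 intron 10 did not separate the genotypes. Shown are 240 bp of 6 of them, read on the strand of the gene from the mm10 reference and centred on the peak summits or, for Cacna1g and Cacna1d whose summits differed between libraries by 1515 and 1223 bp, placed on the stretch with the most CpG sites. Capitals mark CpG sites, the sites that the antibody can find methylated.
Cacna1h, upstream of the gene start, chr17:25435210-25435449, minus strand: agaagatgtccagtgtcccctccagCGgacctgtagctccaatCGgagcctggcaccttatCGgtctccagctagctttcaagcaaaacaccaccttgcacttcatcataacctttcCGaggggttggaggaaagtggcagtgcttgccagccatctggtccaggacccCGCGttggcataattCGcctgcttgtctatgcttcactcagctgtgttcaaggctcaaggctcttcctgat
Cacna1g, coding exons, chr11:94415851-94416090, minus strand: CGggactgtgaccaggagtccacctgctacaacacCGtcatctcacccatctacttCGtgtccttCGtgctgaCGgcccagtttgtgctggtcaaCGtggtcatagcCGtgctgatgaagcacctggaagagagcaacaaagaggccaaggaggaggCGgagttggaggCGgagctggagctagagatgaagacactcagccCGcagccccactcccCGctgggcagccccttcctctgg
Cacna1i, around a coding exon, chr15:80387656-80387895, plus strand: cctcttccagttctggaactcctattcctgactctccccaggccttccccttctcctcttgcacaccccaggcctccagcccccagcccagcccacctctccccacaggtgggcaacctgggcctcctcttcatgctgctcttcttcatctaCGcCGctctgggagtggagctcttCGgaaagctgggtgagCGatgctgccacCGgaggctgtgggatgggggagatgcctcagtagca
Cacna1a, exon 45 and the intron after it, chr8:84636553-84636792, plus strand: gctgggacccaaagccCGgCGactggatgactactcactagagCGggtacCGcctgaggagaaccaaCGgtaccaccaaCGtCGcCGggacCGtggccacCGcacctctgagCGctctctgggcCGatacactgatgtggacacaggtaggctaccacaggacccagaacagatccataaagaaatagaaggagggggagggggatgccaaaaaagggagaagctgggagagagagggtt
Cacna1d, intron next to exons 23 to 25, chr14:30102537-30102776, minus strand: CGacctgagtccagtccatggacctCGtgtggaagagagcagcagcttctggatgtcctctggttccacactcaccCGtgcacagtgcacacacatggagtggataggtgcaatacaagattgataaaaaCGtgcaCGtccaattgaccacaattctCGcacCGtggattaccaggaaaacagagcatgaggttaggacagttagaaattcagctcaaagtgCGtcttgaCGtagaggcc
Cacna2d1, intron 10, chr5:16290676-16290915, plus strand: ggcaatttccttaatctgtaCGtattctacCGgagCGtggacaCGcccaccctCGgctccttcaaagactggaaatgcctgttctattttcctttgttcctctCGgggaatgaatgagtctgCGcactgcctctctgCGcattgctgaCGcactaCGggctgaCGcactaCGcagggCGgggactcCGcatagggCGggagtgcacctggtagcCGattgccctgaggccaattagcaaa
The windows held 7, 11, 5, 12, 9 and 16 CpG sites in this order. The Cacna1g window was coding over all of its 240 bp, the Cacna1a window over 146 bp and the Cacna1i window over 79 bp, while those of Cacna1h, Cacna1d and Cacna2d1 held no coding base.

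To evaluate whether methylation of the channel genes differed between βRapKO and WT islets, tag counts were compared over the 103 regions called in all 4 libraries. None of them passed an FDR of 0.05 in edgeR's quasi-likelihood test, which called 0.0% of the 75052 regions tested, and none passed with DESeq2 or limma. At an unadjusted p under 0.05, 7 of the 103 regions were lower in βRapKO, against 3.93% of all regions tested, and 2 were higher, against 1.88%. Of the 7, 4 lay in T-type genes, 2 in Cacna1d and 1 in Cacna1a. This balance moved with the scaling: lower and higher regions numbered 4 and 4 with TMM, 3 and 7 with tags in peaks as library size, 12 and 0 per kb of peak, and 1 and 1 with DESeq2. Of all 75052 regions, 4363 passed this limit in either direction. With TMM 4055 did, with tags in peaks 4498, per kb of peak 9777 and with DESeq2 963. A fold-change above 1.5 was found for 3 regions downwards, where the share of all regions was 1.77%, and for 2 upwards, where it was 1.29%. Both βRapKO libraries lay below both WT libraries at 34 of the 103 regions (33.0%, against 25.3% of all regions) and above them at 14 (13.6%, against 11.6%), and the genotypes overlapped at 55. The median log2 fold-change of the 103 regions was −0.086, near the −0.059 of all regions tested, and its sign changed to 0.081 when the library size was the number of tags in peaks. In the simulated test of this comparison, 99 of 200 regions changed 2-fold were found, so that differences of 2-fold or less could be missed with 2 libraries per genotype. The simulation gave every region the same dispersion, 0.015, and held no changes smaller than 2-fold.

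The regions of the 3 T-type genes had the lowest median log2 fold-change of the 4 channel groups. In WT replicates 1 and 2 their 12 regions called in all 4 libraries summed to 68.55 and 69.61 CPM, and in βRapKO replicates 1 and 2 to 49.25 and 55.94 CPM, so that both βRapKO libraries lay below both WT libraries. The sums over all 75052 regions were ordered likewise, with 244670 and 242591 CPM in WT and 227049 and 238969 CPM in βRapKO, and so were those of the P/Q-, N- and R-type and of the auxiliary subunit genes. The peaks of these T-type regions covered 29.9 and 29.2 kb in WT and 25.5 and 27.9 kb in βRapKO. Of all 30 T-type regions, 15 and 25 were called in WT replicates 1 and 2. In βRapKO replicates 1 and 2, 22 and 19 were called, so that the counts of calls overlapped between the genotypes. Of the 12 regions, 11 were lower in βRapKO (60.8% of all regions tested), and 10 had both βRapKO libraries below both WT libraries (25.3% of all regions tested). Their median log2 fold-change was −0.38, from −0.79 to 0.08 over the regions, against −0.059 for all regions. It was −0.41 for the 5 regions of Cacna1g, −0.39 for the 3 of Cacna1h and −0.34 for the 4 of Cacna1i, and it was below 0 in each gene under all scalings tried. Per kb of peak, however, the median of all regions was itself −0.165, and those of the 3 genes were −0.32, −0.21 and −0.30. With the gene body alone the median of Cacna1h was −0.153 on the CPM scale. T-type regions were wider and richer in GC than all regions, with a median width of 3376 bp against 1429 bp and a GC content of 53.5% against 46.5%. When all regions were split into 4 equal groups by GC content, the median log2 fold-change was −0.016 in the lowest group and −0.136 in the highest, above 49.32% GC. Split by width it was −0.055, −0.054, −0.074 and −0.059 from the narrowest to the widest group. The part of GC content and width in the result was not tested.

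**Figure D2:**
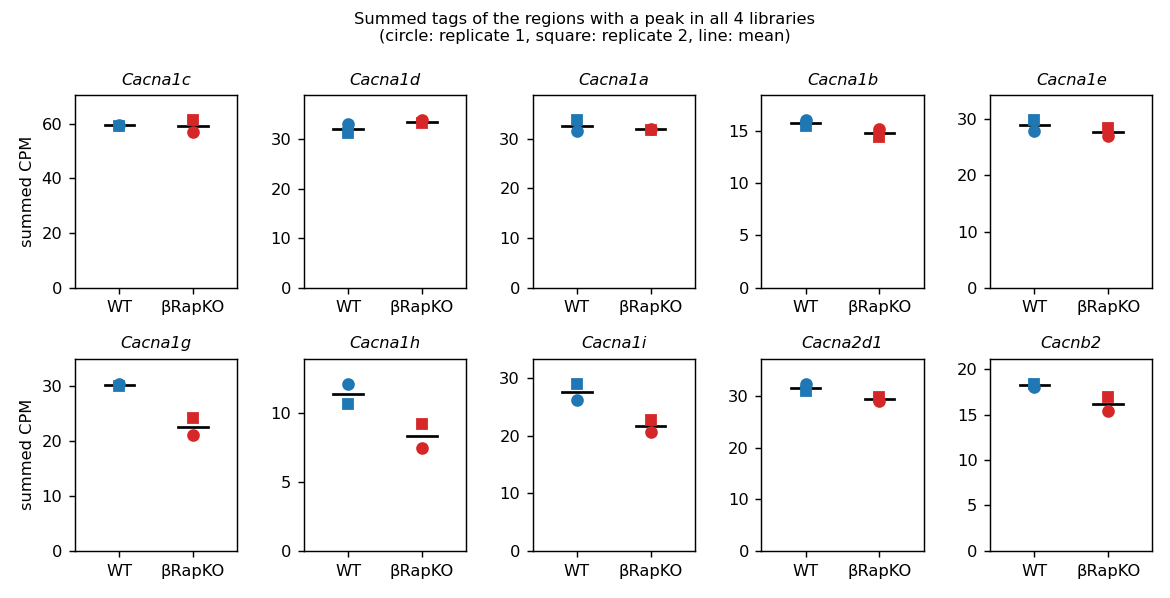
Summed CPM of the regions called in all 4 libraries for each gene (y axis, from 0), in WT (blue) and βRapKO (red) islets; circles are replicate 1, squares replicate 2 and lines the mean of 2 libraries. Both βRapKO libraries lie below both WT libraries in Cacna1g, Cacna1h (7.43 and 9.15 CPM against 12.1 and 10.6 CPM), Cacna1i, Cacna1b, Cacnb2 and Cacna2d1 (29.1 and 29.9 CPM against 32.4 and 30.9 CPM), and above them in Cacna1d, and the genotypes overlap in Cacna1a, Cacna1c and Cacna1e.

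Cacna1g, on chromosome 11, showed this in 4 of its 5 regions. The region from 94414678 to 94419982 spanned exons 27 to 33 and had the most tags of the gene, 11.6 and 8.84 CPM in WT and 6.26 and 7.03 CPM in βRapKO. Both βRapKO libraries were lower, with means of 6.64 ± 0.54 CPM in βRapKO and 10.2 ± 1.96 CPM in WT (SD, n = 2) and a fold-change of 1.53. The log2 fold-change was −0.62 with a 95% interval of −0.99 to −0.25, and its adjusted p in edgeR's test was 0.62, from an unadjusted p of 0.0054. The peak of WT replicate 1 was 5290 bp wide and those of the other libraries 3482 to 3566 bp, and per kb of peak the log2 fold-change was −0.32. Leaving out WT replicate 1 took the log2 fold-change of CPM to −0.41, under the 1.5-fold limit. It was also under this limit without βRapKO replicate 1 (−0.537), with TMM (−0.554), with DESeq2 (−0.558) and with tags in peaks as library size (−0.467). The region over exons 10 to 13 (94441786 to 94445145) had 6.37 and 8.27 CPM in WT and 5.0 and 5.42 CPM in βRapKO. It too was lower in both βRapKO libraries, with a log2 fold-change of −0.49, and an adjusted p of 0.844 in edgeR's test. At the region over exons 2 to 4, βRapKO replicate 2 with 5.66 CPM lay between the WT libraries at 5.94 and 5.36 CPM. A further region of Cacna1g, over exons 24 and 25 (94425138 to 94426563), was called with 68 and 73 tags in the WT libraries and not called in βRapKO.

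Cacna1h, on chromosome 17, had 3 regions called in all 4 libraries. The widest lay upstream of its start, from 25434733 to 25438641, with 183 and 176 tags in WT and 104 and 111 in βRapKO. These are 7.15 and 5.62 CPM in WT and 3.56 and 3.80 CPM in βRapKO, the lowest WT library being above both βRapKO libraries. The log2 fold-change of −0.79 (95% interval −1.20 to −0.38) was the largest drop among the 103 regions, with an unadjusted p of 0.00248 and an adjusted p of 0.507 in edgeR's test. The drop came with narrower peaks, which were 3883 and 2740 bp wide in WT and 1628 and 1909 bp in βRapKO. Per kb of peak the Cacna1h upstream region did not drop, with a log2 fold-change of 0.10. Both other regions lay in intron 2, one with overlapping genotypes and a log2 fold-change of 0.08 and one with −0.39. The region with the most tags of the gene, over exons 31 to 35 (25375156 to 25378309), had no peak in WT replicate 1 and held 9.26 CPM in WT replicate 2 and 5.30 and 8.36 CPM in βRapKO, so it was not tested.

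Cacna1i, on chromosome 15, was lower in both βRapKO libraries at all 4 of its regions called in all 4 libraries. The region over exons 30 to 33 (80386445 to 80390000) held 8.72 and 9.48 CPM in WT and 5.85 and 8.16 CPM in βRapKO. Its log2 fold-change was −0.38 (95% interval −0.78 to 0.02), with an adjusted p of 0.858 in edgeR's test, and was −0.16 without βRapKO replicate 1 and −0.64 without βRapKO replicate 2. The region over exons 7 and 8 (80354636 to 80356750) had the smallest p of the gene, 0.0384 unadjusted, with 4.18 and 5.75 CPM in WT and 3.80 and 3.15 CPM in βRapKO. Its log2 fold-change was −0.52, and −0.27 without WT replicate 2. Regions over exon 6 and over exons 36 and 37 had log2 fold-changes of −0.30 and −0.24. Per kb of peak the log2 fold-changes of the 4 regions ran from −0.093 to −0.41.

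**Figure D3:**
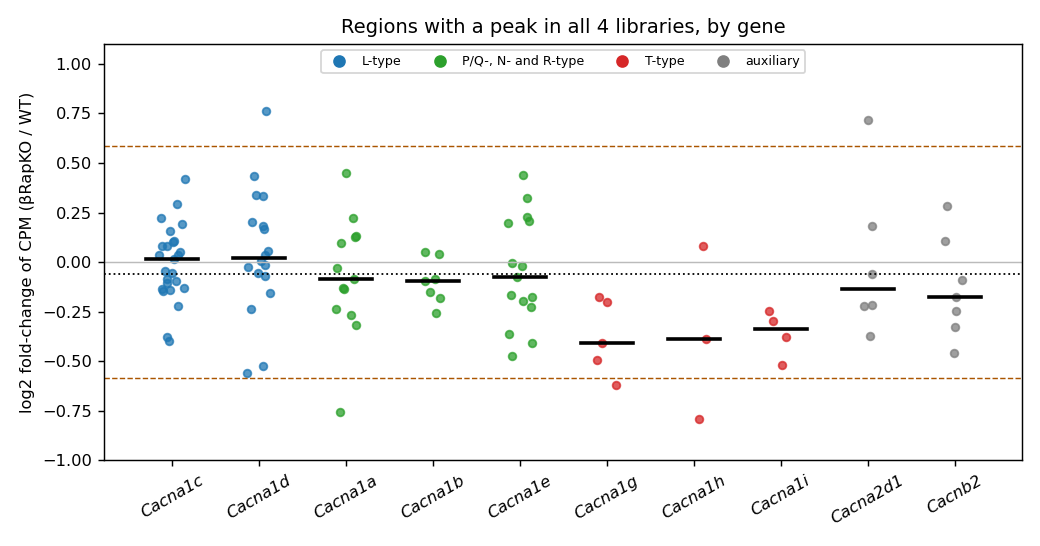
Log2 fold-change of CPM in βRapKO over WT (y axis) for the 103 regions called in all 4 libraries, by gene. Points are regions coloured by channel type, black lines the median of a gene, the dotted line the median of all 75052 regions at −0.059, and the dashed lines a fold-change of 1.5. The medians of Cacna1g, Cacna1h and Cacna1i, from −0.41 to −0.34, lie below those of the other 7 genes, which range from −0.17 to 0.02.

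The 43 regions of the L-type genes summed to 92.75 and 90.36 CPM in WT and to 90.62 and 94.36 CPM in βRapKO, so that the genotypes overlapped, and their median log2 fold-change was 0.014. It was 0.079 with TMM, 0.173 with tags in peaks as library size and −0.11 per kb of peak, where the medians of all regions were 0.004, 0.104 and −0.165. Both βRapKO libraries lay below both WT libraries at 7 regions (16.3%, against 25.3% of all regions) and above them at 6 (14.0%, against 11.6%), and per kb of peak 33 of the 43 were lower (76.7%, against 79.8%). In Cacna1c the region that held most tags covered exon 31 (chromosome 6, 118636906 to 118638662) and had 4.06 and 3.35 CPM in WT and 3.73 and 3.74 CPM in βRapKO, values that overlapped. In Cacna1d the region over exon 28 (chromosome 14, 30095729 to 30097298) overlapped likewise, with 3.13 and 3.48 CPM in WT and 3.05 and 3.32 CPM in βRapKO. The smallest p of Cacna1c, 0.0777 unadjusted, belonged to a region of intron 3 (118847406 to 118848694) with a log2 fold-change of −0.38.

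Cacna1d held the region with the largest rise. It spanned exons 23 to 25 (30101857 to 30104302) and had 54 and 65 tags in WT and 89 and 118 in βRapKO, which are 2.11 and 2.07 CPM against 3.05 and 4.04 CPM. Both βRapKO libraries were higher, with a log2 fold-change of 0.76 (95% interval 0.27 to 1.25), an unadjusted p of 0.0074 and an adjusted p of 0.691 in edgeR's test. Peaks there were 1069 and 1086 bp wide in WT and 1860 and 2341 bp in βRapKO, and per kb of peak the log2 fold-change of Cacna1d exons 23 to 25 was −0.20. The peaks were wider in βRapKO, and not denser. Leaving out βRapKO replicate 2 took the log2 fold-change of the region to 0.54, under the 1.5-fold limit. Of the 18 regions of Cacna1d, 5 had both βRapKO libraries above both WT libraries (27.8%, against 11.6% of all regions) and 3 had them below (16.7%, against 25.3%). The regions over exons 13 and 14 and in intron 1, with log2 fold-changes of −0.56 and −0.53, were among the 3.

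The 35 regions of the P/Q-, N- and R-type genes had a median log2 fold-change of −0.087, and of 0.072 when library size was the number of tags in peaks. Their sums were 75.55 and 79.09 CPM in WT and 74.26 and 74.62 CPM in βRapKO. Within Cacna1a, on chromosome 8, coding regions had log2 fold-changes of opposite sign on the CPM scale, and none passed the FDR. The region over exon 45 (84636290 to 84637391) had 63 and 82 tags in WT and 41 and 47 in βRapKO, with means of 2.54 ± 0.11 and 1.51 ± 0.147 CPM (SD, n = 2). Both βRapKO libraries were lower, by a fold-change of 1.69 and a log2 fold-change of −0.75 (95% interval −1.21 to −0.29), with an adjusted p of 0.632 in edgeR's test. Peaks there were 968 to 1102 bp wide in the 4 libraries, and per kb of peak the log2 fold-change of Cacna1a exon 45 was also −0.75. The region over exons 25 to 27 (84579504 to 84581793) had 2.74 and 4.02 CPM in WT and 4.76 and 4.52 CPM in βRapKO, the WT libraries being both lower. Its log2 fold-change was 0.45 (adjusted p = 0.858 in edgeR's test) and −0.24 per kb of peak, and the peak of WT replicate 1 was 777 bp wide against 1791 to 2236 bp in the other libraries. On the CPM scale it was 0.21 without WT replicate 1 and 0.76 without WT replicate 2. In Cacna1b, on chromosome 2, the region over exons 44 to 46 (24606171 to 24608267), with 3.32 and 3.54 CPM in WT and 3.56 and 2.91 CPM in βRapKO, did not separate the genotypes. The smallest p of Cacna1b, 0.223 unadjusted in edgeR's test, belonged to a region that touched exon 38 by 3 coding bp (24623779 to 24625240). Its log2 fold-change was −0.25. Cacna1e, on chromosome 1, had its smallest p, 0.0644 unadjusted, at a region before the principal transcript (154814666 to 154816331), with 2.35 and 3.10 CPM in WT and 1.85 and 2.09 CPM in βRapKO. Its log2 fold-change was −0.47, and −0.25 without WT replicate 2. Of the 15 regions of Cacna1e, 4 were lower in both βRapKO libraries (26.7%, against 25.3% of all regions) and 4 were higher (26.7%, against 11.6%).

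**Figure D4:**
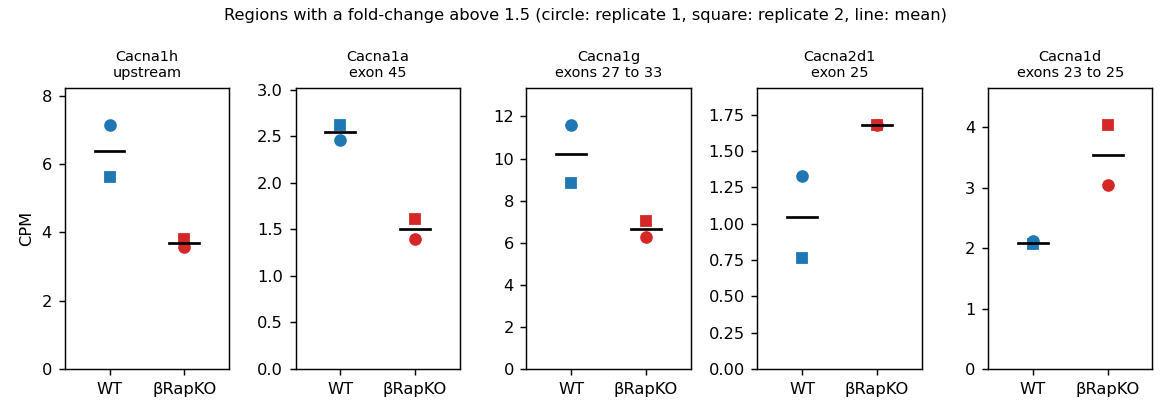
CPM in each library (y axis, from 0) of the 5 regions with a fold-change above 1.5, in WT (blue) and βRapKO (red); circles are replicate 1, squares replicate 2 and lines the mean of 2 libraries. The genotypes do not overlap in any of the 5 panels, the Cacna1h, Cacna1a and Cacna1g regions being lower in βRapKO and the Cacna2d1 and Cacna1d regions higher. The 5 were chosen by fold-change from these same values, so the lack of overlap is no separate result. Over all regions tested, both βRapKO libraries lay below both WT libraries at 25.3% and above them at 11.6%.

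The 13 regions of the auxiliary subunit genes had a median log2 fold-change of −0.17, and of −0.013 when library size was the number of tags in peaks. Their sums were 50.38 and 49.31 CPM in WT and 44.52 and 46.82 CPM in βRapKO. The region with the most tags of the 10 genes lay in intron 10 of Cacna2d1 (chromosome 5, 16289450 to 16292714). It had 14.9 and 13.7 CPM in WT and 13.7 and 13.6 CPM in βRapKO, with a log2 fold-change of −0.058 (95% interval −0.29 to 0.17), and it was about as high in all 4 libraries. Its sequence was 81.1% repeat-masked and held 3.34 CpG sites per 100 bp, where the 103 regions had a median of 1.74. Over exon 25 of Cacna2d1 (16352622 to 16353576), 34 and 24 tags in WT stood against 49 and 49 in βRapKO. The log2 fold-change was 0.71 (95% interval 0.13 to 1.30) with an adjusted p of 0.849 in edgeR's test, the peaks were 566 and 470 bp wide in WT and 861 and 955 bp in βRapKO, and per kb of peak the log2 fold-change of Cacna2d1 exon 25 was −0.10. On the CPM scale it was 1.13 without WT replicate 1 and 0.34, under the 1.5-fold limit, without WT replicate 2. In Cacnb2, on chromosome 2, the region from 14626337 to 14627765, before the principal transcript, had 5.43 and 5.01 CPM in WT and 4.79 and 4.46 CPM in βRapKO, both lower (log2 fold-change −0.17, adjusted p = 0.893 in edgeR's test). The smallest p of Cacnb2, 0.0741 unadjusted, lay further along, from 14811367 to 14812665, with a log2 fold-change of −0.46, and of −0.26 without WT replicate 2.

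Differences in tags and in tags per kb of peak were not the same measurement. Per kb of peak, 82 of the 103 regions were lower in βRapKO (79.6%, against 79.8% of all regions), with a median log2 fold-change of −0.17 against −0.165 of all regions. Median peaks were 1102 and 1150 bp wide in βRapKO and 1059 and 938 bp in WT. Of the 5 regions with a fold-change above 1.5, those of Cacna1a and Cacna1g kept their direction per kb, whereas those of Cacna1h, Cacna1d and Cacna2d1 turned.

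**Figure D5:**
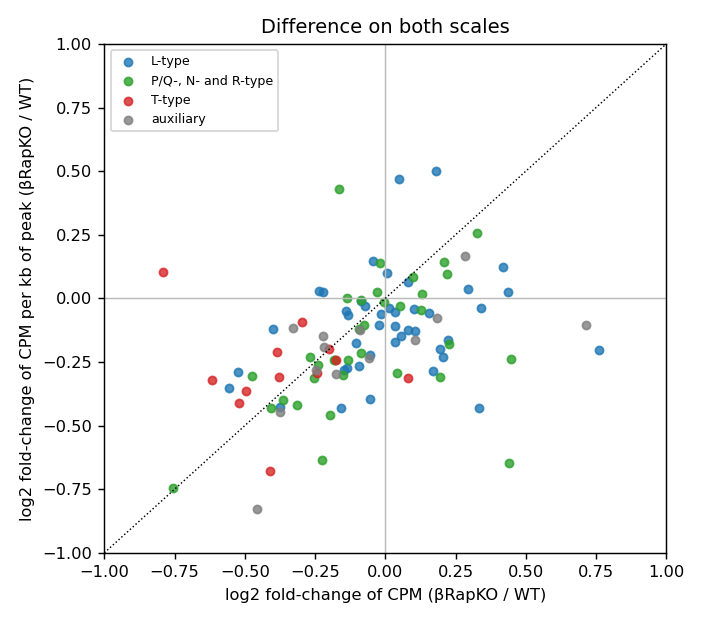
Log2 fold-change in βRapKO over WT of CPM (x axis) and of CPM per kb of peak (y axis) for the 103 regions, coloured by channel type; equal values lie on the dotted line. Most points, 82 of 103, lie below 0 on the y axis, and the T-type region at −0.79 on the x axis (Cacna1h, upstream) lies at 0.10 on the y axis.

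Regions over coding exons and regions off them were set side by side, since many of the named regions overlapped exons. An overlap of at least 1 bp counted as over a coding exon. The 40 channel gene regions over coding exons had a median log2 fold-change of −0.133 and the 63 others of −0.043. Over all regions tested the medians were −0.105 and −0.048. The 40 regions had 53.3% GC and the 63 others 46.6%, and the part of GC content in this was not tested.

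Regions called in both libraries of 1 genotype and in neither of the other numbered 11 for WT (3.61%, against 4.16% of all regions) and 10 for βRapKO (3.28%, against 1.58%). Peaks of these regions were small, with 23 to 73 tags, and a region without a peak may still hold tags below the threshold. Of the 11 WT regions, Cacnb2 held 3, Cacna1c 3, Cacna1a 2, and Cacna1d, Cacna1e and Cacna1g 1 each. Against 4.16% of all regions, these were 16.7%, 3.53%, 6.67%, 1.54%, 3.23% and 11.1% of the regions of each gene in this order. In Cacna1a they lay over exon 22 (50 and 66 tags) and exon 30 (47 and 48 tags). In Cacnb2 they lay over exon 2 (31 and 35 tags), in intron 1 (27 and 25) and in intron 2 (23 and 29). In Cacna1c they lay over exons 26 and 27 (43 and 48 tags), in intron 3 (49 and 55) and in intron 1 (26 and 55). The region of Cacna1e lay over exon 13 (28 and 35 tags) and that of Cacna1d in intron 8 (31 and 26 tags).

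Of the 10 βRapKO regions, 5 lay in Cacna1d, 2 in Cacna1c, 2 in Cacna2d1 and 1 in Cacna1a. Against 1.58% of all regions, these were 7.69%, 2.35%, 7.14% and 3.33% of the regions of each gene in this order. In Cacna1d they lay over exon 36 (36 and 39 tags), at 2 places in intron 3 (31 and 31, and 26 and 41 tags) and at 2 in intron 1 (28 and 27, and 30 and 41 tags). Cacna1c had them in intron 3 (47 and 49 tags) and intron 1 (32 and 33 tags), Cacna2d1 in intron 1 (28 and 33) and intron 11 (31 and 61), and Cacna1a in intron 3 (47 and 62). A further region of Cacna1c intron 3 was called in WT only, so calls of both kinds lay in the same intron.

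Genes outside the 10 were counted for comparison. Of 16 other channel subunit genes, 15 held 195 regions, and 58 of these were called in all 4 libraries, with a median log2 fold-change of −0.047. None passed the FDR in edgeR's test, 6 were lower at an unadjusted p under 0.05 (10.3%, against 3.93% of all regions) and 0 were higher (against 1.88%). Both βRapKO libraries lay below both WT libraries at 17 of the 58 (29.3%, against 25.3%) and above them at 4 (6.90%, against 11.6%). Of 21 genes that release, pump or admit calcium by other routes, 20 held 361 regions, and 131 of these were called in all 4 libraries, with a median log2 fold-change of −0.085. None passed the FDR in edgeR's test, 4 were lower at an unadjusted p under 0.05 (3.05%, against 3.93% of all regions) and 2 were higher (1.53%, against 1.88%). Both βRapKO libraries lay below both WT libraries at 43 of the 131 (32.8%, against 25.3%) and above them at 13 (9.92%, against 11.6%). The median of all regions was −0.059.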

How the data were processed

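The authors aligned MeDIP-seq reads to mm10 (Bowtie2 2.2.5) and called peaks per library with MACS, version 1.4.2 in the file headers and 0.14.2 in their notes, at p below 1e-05 without a control library, keeping 1 tag per position and taking the local background from 10000 bp. The authors deposited per peak the raw count of tags, a score (−log10(p) multiplied by 10) and the fold enrichment, a ratio to background. The number of mice per library was not given in the sources used here, so p-values measure the spread between these libraries. A peak called without a control library can also mark other places where tags accumulate, and deeper libraries pass the threshold more easily.

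Tags of all peaks in a joined region were added. The 75052 regions called in all 4 libraries entered edgeR 4.0.16 (R 4.3.3; quasi-likelihood test, genotype alone, library size the tags kept, no TMM) with Benjamini-Hochberg adjustment. Calls needed an FDR under 0.05 together with a 1.5-fold difference. Where a library had no peak, its count was not known. Standard errors came from the F statistic, with 95% intervals. The common dispersion was 0.015. On simulated counts with 200 regions changed 2-fold, 99 of them and 7 of the unchanged regions passed the FDR, without the fold limit. Positions came from GENCODE M21 and sequences from the GRCm38 reference. A CpG count at peak summits (8.88 on average, 3.09 at 5 kb away) was used to check the build. Figures used matplotlib 3.10.9.

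The members and lists were chosen with earlier results of these data known. Regions were named by a rule: in each gene that of most tags, that of the smallest p, those from 2 kb before to 500 bp after the gene start, those called in both libraries of 1 genotype only, and those with a fold-change above 1.5. Other regions of the T-type genes, 2 of Cacna1d and 1 of Cacna1a were named after their values were seen. A listed cell type marker is not reported here. The numbers 1 and 2 of the labels occur in both genotypes, but same-numbered libraries did not deviate together (correlation 0.0474), so the block was used only as an alternative. Other alternatives were TMM, tags in peaks as library size, tags per kb of peak, at least 50 tags, a score of at least 100, an overlap of 50%, an equal number of peaks, the gene body alone, DESeq2 1.42.0, limma 3.58.1 on log2(CPM + 0.5) and leaving out each library; those for the T-type genes were chosen after seeing the data.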

Additional observations from a re-analysis of the deposited data

How the results depend on the processing

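No region of the channel genes passed the FDR under any alternative run, and over all regions DESeq2 called 2. Whether same-numbered libraries were paired was not given in the sources used here. With the replicate block 0 regions passed the FDR, while 8 channel gene regions were lower and 2 higher at an unadjusted p under 0.05. Without the block these were 7 and 2, and they were 4 and 4 with TMM, 3 and 7 with tags in peaks, 12 and 0 per kb of peak and 1 and 1 with DESeq2. Of all 75052 regions, 4731 passed this limit with the block and 4363 without it. The count of channel gene regions more than 1.5-fold lower, 3, was 2 with TMM, tags in peaks, DESeq2, at least 50 tags or the gene body alone. It was 5 per kb of peak and 1 with a score of at least 100. When a library was left out it was 5 to 8 (8 without WT replicate 1, 6 without WT replicate 2, 5 without βRapKO replicate 1, 8 without βRapKO replicate 2). The count more than 1.5-fold higher, 2, was 5 with tags in peaks as library size, 0 per kb of peak, 1 with at least 50 tags, 1 with a score of at least 100, and 1 to 3 when a library was left out (1 without βRapKO replicate 2). The median log2 fold-change of the 103 regions, −0.086, was −0.021 with TMM, 0.081 with tags in peaks and −0.17 per kb of peak, and −0.114 to −0.039 when a library was left out. The median of all regions moved from −0.059 to 0.104 with tags in peaks and to −0.165 per kb. Lower and higher channel gene regions numbered 63 and 40, and 54 and 49 with TMM, 37 and 66 with tags in peaks, and 82 and 21 per kb. Of all regions 60.8% were lower, and 49.3% with TMM, 31.4% with tags in peaks and 79.8% per kb. The cause of these changes was not tested.

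The T-type genes had 11 of 12 regions lower, 10 to 12 when a library was left out, and 2 of 3 with a score of at least 100, which leaves fewer regions. Their median, −0.382, was −0.222 with tags in peaks, −0.177 with a score of at least 100, −0.302 per kb and −0.413 to −0.282 when a library was left out; relative to all regions it was −0.323, and −0.326 with tags in peaks and −0.137 per kb. Regions called in WT only, 11, fell to 6 with an equal number of peaks per library, and those called in βRapKO only, 10, to 2 with a score of at least 100.

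Among 167 values of the 17 named regions under alternatives, 150 kept their direction and 17 turned. Cacna2d1 intron 10 turned to 0.006 with TMM, 0.10 with tags in peaks, 0.004 with DESeq2 and 0.002 without WT replicate 1 (−0.118 to 0.002 over the libraries left out). Cacna1d exon 28 turned to 0.007 with TMM, 0.11 with tags in peaks, 0.007 with DESeq2, 0.027 without WT replicate 2 and 0.007 without βRapKO replicate 1 (−0.127 to 0.027). Cacna1b exons 44 to 46 turned to 0.081 with tags in peaks and 0.05 without βRapKO replicate 2 (−0.238 to 0.05). Cacna1c exon 31 turned to −0.123 without WT replicate 2 (−0.123 to 0.155) and −0.039 per kb of peak. Per kb of peak, Cacna2d1 exon 25 turned to −0.103, Cacna1a exons 25 to 27 to −0.237, Cacna1d exons 23 to 25 to −0.203 and the Cacna1h upstream region to 0.102.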
